A study of Mus musculus with 6 samples.

Results

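The 8 genes described here serve cholesterol synthesis: Hmgcs1, Idi1, Fdft1, Sqle, Lss, Cyp51 and Dhcr7 encode enzymes of the pathway, and Srebf2 encodes the transcription factor SREBP2, which controls it. They were found by matching the Ensembl identifier of each listed gene, with its version number dropped, to these mouse symbols, which gave 8 of the 52550 genes listed; the rule uses no measured value. All 8 passed the filter on low values and are among the 22452 genes tested. The source was fetal liver of CD-1 mice of genotype Sox9-GFP, whose reporter makes cells fluoresce where the biliary transcription factor SOX9 is expressed, and RNA-seq was run on the fluorescent cells taken by flow sorting. There were 3 libraries from E16.5, when bile duct lumina begin to form, and 3 from E18.5 (replicates A to C of each stage), and every library pooled 15 livers whose blood-forming cells had been depleted before the sort. Both stages shared strain, reporter and sort, no treatment was given, and the only comparison the design holds is that between the stages. The labels write embryonic days 16 and 18 where the methods write E16.5 and E18.5, and call the cells cholangiocytes, the epithelial cells of bile ducts; the reporter also marks hepatoblasts that have begun to express SOX9, the fetal liver cells from which cholangiocytes arise.

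Cholesterol is built from acetyl-CoA in the cytosol and endoplasmic reticulum, through mevalonate, isoprenoid units, squalene and lanosterol. When sterols in the endoplasmic reticulum fall, the escort protein SCAP carries SREBP2 to the Golgi, where proteases release the part that enters the nucleus and activates the genes of the pathway; INSIG proteins hold SCAP back when sterols are plentiful. In the liver, hepatocyte-lineage cells make much of the cholesterol, which serves membranes, lipoproteins and bile acids.

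The values are TPM, read counts divided by gene length and rescaled to a sum of 1000000 in each library. The length was that of all annotated exons of a gene, for example 10787 bases for Lss and 3505 bases for Idi1. Comparisons of level between genes, such as orders and ratios of TPM, therefore depend on this length and are approximate where the cells use only some exons. The recovered depth was 22643868 to 26206374 reads in the E16.5 libraries and E18.5 replicate A, 17057572 in E18.5 replicate B and 13093937 in E18.5 replicate C. The label was checked against markers. The 12 cholangiocyte markers, led by Spp1 and Sox9, summed to 990 to 2957 TPM in the E16.5 libraries and 8763 to 14820 TPM in those of E18.5, and 11 of the 12 had reads in each library. The 12 hepatoblast markers, led by Alb, had the larger sum in each library, at 180400 to 230300 TPM at E16.5 and 43270 to 105000 TPM at E18.5. The 2 sums were closest in E18.5 replicate B, at 43270 TPM for hepatoblast and 14820 TPM for cholangiocyte markers. There Alb alone had 30020 TPM, so the comparison of sums rests largely on 1 gene. Megakaryocyte markers summed to 3310 to 9595 TPM in the early libraries and 87.9 to 760 TPM in the late ones. In limma's test across all genes (called at an adjusted p under 0.05), 7000 genes were called, 83.3% of them higher at E18.5, and the log2 fold change had a median of 0.42 across the genes tested. Scaling the TPM between libraries by median of ratios moved that median to 0.01 and left 3795 calls, 38.1% of them higher, so the direction of small changes depends on the scaling and both values are given for the 8 genes. Because these are bulk samples of mixed cells, fewer cells of a type and less RNA per cell cannot be told apart.

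The 8 genes are protein-coding and are placed on GRCm38 with the GENCODE vM21 annotation. Hmgcs1 lies on the forward strand at chr13:119690379-119708260 and Idi1 on the same chromosome and strand at chr13:8885501-8892451. Sqle and Srebf2 share chromosome 15, on the forward strand at chr15:59315077-59331192 and chr15:82147181-82205379. Lss lies at chr10:76531588-76557138 and Dhcr7 at chr7:143823145-143848410, both forward, whereas Fdft1 at chr14:63145150-63179578 and Cyp51 at chr5:4081145-4104746 are on the reverse strand. Exons of a gene on the opposite strand cover 18.3% of the Fdft1 exon sequence (Ctsb), 12.1% of Hmgcs1 (Gm48342), 9.22% of Idi1 (Gm48574), 3.76% of Cyp51 (Akap9) and 3.53% of Lss (4930483K19Rik). The kit was strand-specific, whereas which strand was counted is not given in the sources used here, so the counts over such stretches could be low or mixed. Processed pseudogenes of at least 95% identity over 200 or more bases exist for Idi1 (2) and Fdft1 (1), and the values of both genes are uncertain to the extent that reads were lost to these copies. The members had between 394 reads (Idi1 in a single library) and 16585 reads (Hmgcs1); for Srebf2, whose identifier has another version in the annotation, no reads were recovered.

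Promoter windows are shown because SREBP2 acts through sterol regulatory elements, short sites near the start of its target genes that often sit beside CCAAT boxes, the sites of the factor NF-Y. The windows come from RefSeq on GRCm38.p6 and run from 250 bases before to 50 bases after the annotated start, on the strand of the gene. Hmgcs1 and Srebf2 are printed as the members whose window holds the letters TCACNCCA, and Lss as the member with the largest fall in the comparison below, without that match. Capitals mark TCACNCCA and CCAAT, the latter written ATTGG where it lies on the opposite strand. The windows are chr13:119690101-119690400 for Hmgcs1, chr15:82147019-82147318 for Srebf2 and chr10:76531355-76531654 for Lss, all on the forward strand.
Hmgcs1: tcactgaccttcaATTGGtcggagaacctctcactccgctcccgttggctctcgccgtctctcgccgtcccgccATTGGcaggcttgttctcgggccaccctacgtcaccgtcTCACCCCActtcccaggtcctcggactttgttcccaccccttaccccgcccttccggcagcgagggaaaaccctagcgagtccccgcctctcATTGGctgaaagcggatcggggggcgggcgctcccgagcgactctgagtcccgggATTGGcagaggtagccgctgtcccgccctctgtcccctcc
Srebf2: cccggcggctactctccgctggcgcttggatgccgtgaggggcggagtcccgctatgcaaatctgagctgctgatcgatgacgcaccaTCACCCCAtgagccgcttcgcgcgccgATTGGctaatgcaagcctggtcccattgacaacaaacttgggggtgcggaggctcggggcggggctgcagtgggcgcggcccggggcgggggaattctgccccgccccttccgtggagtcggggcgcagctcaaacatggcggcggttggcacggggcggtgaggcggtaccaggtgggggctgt
Lss: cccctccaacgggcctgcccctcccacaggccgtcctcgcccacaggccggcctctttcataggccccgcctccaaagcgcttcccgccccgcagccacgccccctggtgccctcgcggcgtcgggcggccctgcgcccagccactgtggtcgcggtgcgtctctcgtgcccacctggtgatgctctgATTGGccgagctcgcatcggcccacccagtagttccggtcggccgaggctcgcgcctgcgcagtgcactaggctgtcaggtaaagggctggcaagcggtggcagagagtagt

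Each motif was searched on both strands. TCACNCCA starts 137 bases before the RefSeq start of Hmgcs1 and 162 bases before that of Srebf2, and 4.36% of all 32851 windows hold it. The longer form TCACNCCAC, which overlaps it, was found in Hmgcs1 alone among the members and in 1.24% of all windows. Both RefSeq starts differ from the GENCODE starts given above. The end of the Hmgcs1 window was not found in a GENCODE transcript of the gene. Windows were given for 6 of the 8 members (8 windows, since Dhcr7 has 3); Fdft1 and Sqle had none. CCAAT was present in 6 of the 8 windows, against 37.4% of all windows, and occurs 4 times in the window of Hmgcs1. GGGCGG, the core of sites for Sp1, was found in 7 of the 8, against 35.7% of all windows. Each of the 6 members had both motifs in at least 1 window. CACGTG was found in 1 window of Dhcr7 and in 7.15% of all windows. Of 12 windows of 11 other cholesterol enzymes, 10 held CCAAT, 10 held GGGCGG, and 1, that of Msmo1, held TCACNCCA. These matches describe letters in a window and are not shown to be bound sites; several spellings were tried.

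On the TPM as deposited, 6 of the 7 enzymes were called lower at the later stage and Srebf2 was not. Hmgcs1, Idi1, Fdft1, Lss, Cyp51 and Dhcr7 were called lower at E18.5, where the called share of all genes tested was 5.22% in that direction, and 0 of the 8 members were called higher, against 26.0% of all genes. The E16.5 and E18.5 libraries did not overlap for those 6 genes, all lower at E18.5, against 8.3% of all genes not overlapping and lower and 45.0% not overlapping and higher. The median log2 fold change of the 8 members was -0.83, beside 0.42 over all genes. With median-of-ratios scaling, 8 of the 8 were called lower (10.5% of all genes; 6.44% called higher) and their median was -1.29, beside 0.01. The summed TPM of the 7 enzymes was 970 ± 136 at E16.5 and 534 ± 84.0 at E18.5 (SD, n = 3), 1.82-fold lower. Nothing in the labels says that the letters of the replicates pair pools across stages, and p-values measure the spread between pooled libraries. For each of the 6 genes, the exact two-sided permutation test on TPM gave p = 0.1, the smallest that 3 against 3 allows.

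**Figure D1:**
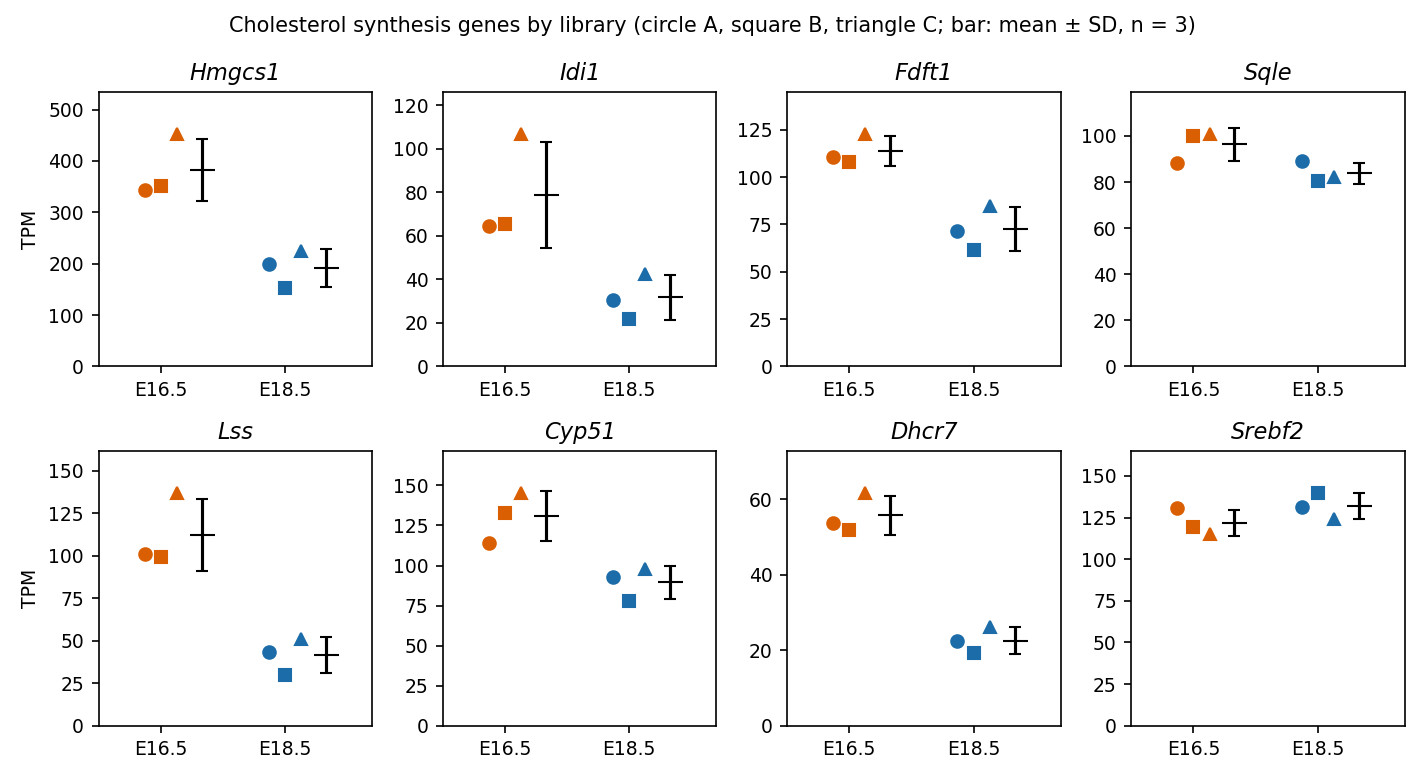
TPM of the 8 cholesterol synthesis genes in each library of E16.5 (orange) and E18.5 (blue); circles, squares and triangles are replicates A, B and C, and bars give the mean ± SD of 3 libraries. The stages are apart for 6 enzymes and overlap for Sqle and Srebf2, and E16.5 replicate C and E18.5 replicate B are the highest and lowest libraries of their stages for the 7 enzymes.

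Hmgcs1 encodes the cytosolic HMG-CoA synthase, which opens the pathway to mevalonate. Its levels were 343, 352 and 453 TPM in the E16.5 libraries (replicates A to C, the order used throughout) and 199, 152 and 225 TPM at E18.5. All 3 early libraries lay above all 3 late ones. The mean fell 1.99-fold, from 383 ± 60.8 to 192 ± 36.8 TPM (SD, n = 3), a log2 fold change of -0.998 (standard error 0.18, limma adjusted p = 0.0139) and of -1.46 with median-of-ratios scaling (adjusted p = 0.0183). Hmgcs1 was the most abundant member at both stages, above 99.2% to 99.4% of protein-coding genes at E16.5 and above 96.9% to 98.5% of them at E18.5. Without E18.5 replicate A the change was -1.03 and missed the threshold (limma adjusted p = 0.0541).

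Idi1 encodes isopentenyl diphosphate isomerase, which supplies the isoprenoid units. E16.5 replicate C stood above the others of its stage, at 107 TPM beside 64.4 and 65.3 TPM in replicates A and B. The E18.5 libraries had 30.7, 22.0 and 42.5 TPM, below each E16.5 library. The log2 fold change was -1.29 (standard error 0.28, limma adjusted p = 0.0195), and -1.75 with median-of-ratios scaling (adjusted p = 0.0278), a 2.48-fold lower mean. The standard error was the largest of the 8 members. The call was lost without E18.5 replicate A (limma adjusted p = 0.0660) and without E18.5 replicate B (-1.06, limma adjusted p = 0.0564). Within the libraries, Idi1 went from above 91.0% to 95.8% of protein-coding genes to above 67.0% to 82.8% of them.

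Fdft1 encodes squalene synthase, the first step that leads to sterols alone. Its levels were 111, 108 and 123 TPM at E16.5 and 71.8, 61.4 and 84.6 TPM at E18.5, so that the stages did not overlap. The mean was 1.57-fold lower at E18.5. The log2 fold change was -0.65 (standard error 0.14, limma adjusted p = 0.0189), and -1.11 with median-of-ratios scaling (adjusted p = 0.0187). Leaving out E18.5 replicate A kept the size of the change (-0.65) but lost the call (limma adjusted p = 0.0675).

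Sqle encodes squalene epoxidase, an oxygen-dependent enzyme that acts on the product of Fdft1 and is a known control point of the pathway. It was the enzyme among the members with the smallest difference between stages. The libraries had 88.2, 99.9 and 100.9 TPM at E16.5 and 89.0, 80.5 and 82.1 TPM at E18.5. E18.5 replicate A lay above E16.5 replicate A, so the stages overlapped. The log2 fold change was -0.20 (standard error 0.11, limma adjusted p = 0.192, 95% interval -0.45 to 0.06), and the exact permutation p was 0.2. With median-of-ratios scaling it was called lower, at -0.66 (limma adjusted p = 0.0321), as it was with quantile normalization (-0.42, limma adjusted p = 0.0366).

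Lss encodes lanosterol synthase, which closes the sterol rings. It was measured at 101, 99.2 and 137 TPM in the E16.5 libraries and at 43.5, 30.1 and 51.3 TPM in the E18.5 libraries. Each early library lay far above each late one. Its log2 fold change of -1.43 (standard error 0.22, limma adjusted p = 0.0106) was the largest in size among the members, with a 2.70-fold lower mean, and was -1.89 with median-of-ratios scaling (adjusted p = 0.0150). Lss was called in each of 16 alternative settings, with an adjusted p of at most 0.0477. Its rank fell from above 95.3% to 97.0% of protein-coding genes to above 73.3% to 86.3% of them.

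Cyp51 encodes lanosterol demethylase, the next step after Lss. Values were 114, 133 and 145 TPM at E16.5 and 92.9, 77.8 and 97.6 TPM at E18.5, without overlap but with a narrow gap. The mean was 1.46-fold lower at E18.5, the log2 fold change was -0.54 (standard error 0.14, limma adjusted p = 0.0288), and with median-of-ratios scaling it was -1.004 (adjusted p = 0.0255). This was the least stable call among the members. It was lost in 6 of 16 alternatives, among them the fits without E16.5 replicate B or C (adjusted p = 0.0732 and 0.0700, limma) and without E18.5 replicate A or B (adjusted p = 0.0784 and 0.0754, limma), although the change stayed negative in all 16.

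Dhcr7 encodes the reductase that makes cholesterol from its last precursor. It was the least abundant member at both stages, with 53.8, 51.8 and 61.6 TPM at E16.5 and 22.3, 19.2 and 26.1 TPM at E18.5. The 3 values of a stage lay close together and the stages were well apart. The log2 fold change was -1.28 (standard error 0.15), the mean was 2.47-fold lower, and the limma adjusted p of 0.00812 was the lowest of the 8 members; with median-of-ratios scaling the change was -1.73 (adjusted p = 0.0110). Dhcr7 was called in all 16 alternatives.

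Srebf2, the regulator, had 131, 119.5 and 115 TPM at E16.5 and 132, 139.7 and 124 TPM at E18.5. E18.5 replicate C lay below E16.5 replicate A, so the stages overlapped. The log2 fold change was 0.11 (standard error 0.11, limma adjusted p = 0.419, 95% interval -0.14 to 0.36), with an exact permutation p of 0.2. Its direction depended on the scaling, at -0.35 with median-of-ratios scaling (limma adjusted p = 0.0339) and -0.053 with quantile normalization (limma adjusted p = 0.671). Under each of these scalings Srebf2 remained the member with the highest log2 fold change. Its rank within the libraries was steady, above 96.2% to 96.7% of protein-coding genes at E16.5 and above 96.2% to 96.3% of them at E18.5.

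**Figure D2:**
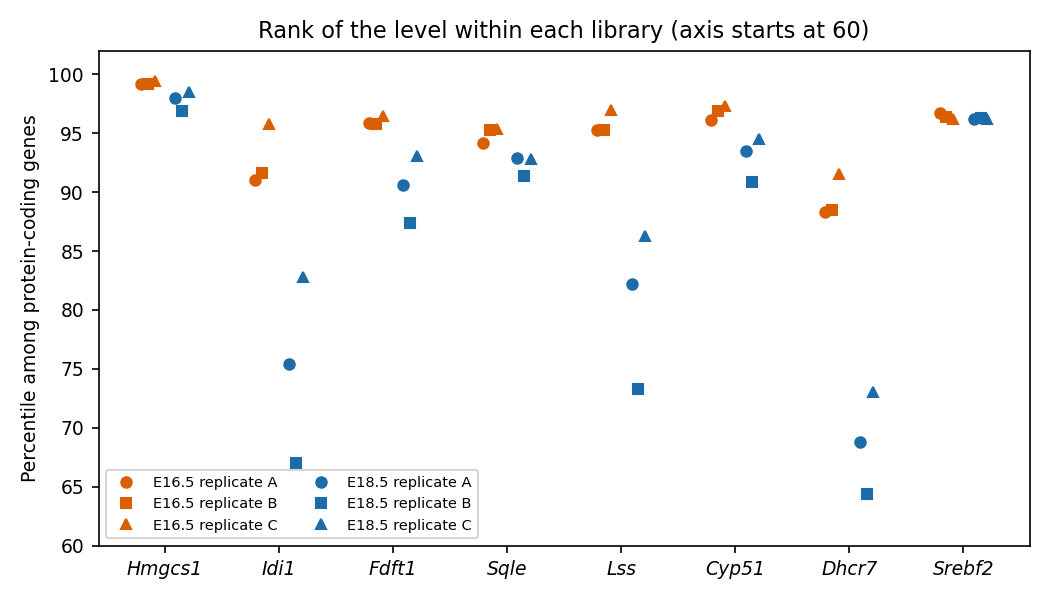
Percentile of each of the 8 genes among the protein-coding genes of the same library, for 3 libraries per stage; the axis starts at 60 and is not scaled from 0. Idi1, Lss and Dhcr7 moved furthest down, Dhcr7 to 64.4 in E18.5 replicate B, while Srebf2 stayed between 96.2 and 96.7.

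The members therefore changed order. By mean TPM at E16.5 the order was Hmgcs1, Cyp51, Srebf2, Fdft1, Lss, Sqle, Idi1 and Dhcr7, in which the libraries of neighbours overlapped except between Hmgcs1 and Cyp51 and between Idi1 and Dhcr7. At E18.5 it was Hmgcs1, Srebf2, Cyp51, Sqle, Fdft1, Lss, Idi1 and Dhcr7, and neighbours did not overlap between Hmgcs1 and Srebf2, Srebf2 and Cyp51, and Fdft1 and Lss. Ratios within a library, chosen after the values had been seen and therefore given with no test, show the spread inside the pathway. Sqle stood at 0.872, 1.01 and 0.738 times Lss at E16.5 and at 2.05, 2.68 and 1.60 times Lss at E18.5. Srebf2 stood at 1.29, 1.21 and 0.842 times Lss and then at 3.02, 4.64 and 2.43 times Lss. In both pairs the 3 late libraries lay above the 3 early ones, and E18.5 replicate B gave the highest ratio.

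Of 14 other enzymes of the pathway, 10 were called lower and 0 higher, beside 5.22% and 26.0% of all genes. All 14 had a negative log2 fold change, with a median of -0.57. With median-of-ratios scaling 12 were called lower (10.5% of all genes), with a median of -1.02. Stages did not overlap for 12 of the 14, all lower at E18.5. Of all genes, 8.3% did not overlap and were lower, and 45.0% did not overlap and were higher. In mevalonate formation, the thiolase Acat2 fell by 0.72 on the log2 scale and the mevalonate kinase Mvk by 0.70, while Mvd, which makes the isoprenoid unit that Idi1 isomerizes, fell by 0.52. Pmvk, the kinase between Mvk and Mvd, had -0.35 and was not called (limma adjusted p = 0.123). Acat2 shares 1477 bases of near-identical sequence with Acat3, so its value is uncertain.

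Among the isoprenoid and sterol steps, Fdps, which makes farnesyl diphosphate, fell by 1.41 on the log2 scale with a standard error of 0.43, close to the threshold (limma adjusted p = 0.0460). It has 4 processed pseudogenes and a further near-identical gene, and had 4.97 ± 2.02 TPM at E18.5 (SD, n = 3), so its level is uncertain. Msmo1, the sterol methyl oxidase, fell by 1.32, Nsdhl, which acts with it in removing methyl groups, by 0.62, and the sterol reductase Tm7sf2 and the isomerase Ebp by 0.42 each. The enzymes not called were Hsd17b7 (-0.40), Sc5d (-0.33) and Lbr (-0.16), with limma adjusted p of 0.124, 0.0705 and 0.420. Lbr also anchors chromatin to the nuclear envelope.

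Taking the 21 enzymes as 1 list, 16 were called lower and 0 higher, beside 5.22% and 26.0% of all genes. Their summed TPM was 2388 ± 309.8 at E16.5 and 1202 ± 185 at E18.5 (SD, n = 3), or 0.239% and 0.120% of all TPM. The count leaned on 1 library: without E18.5 replicate A, 2 of the 8 members (Lss and Dhcr7) and 2 of the 14 other enzymes were called, and over all genes 1148. The changes kept their size in that fit, for example -1.48 for Lss and -1.27 for Dhcr7, and the adjusted p of the 8 enzymes lost from the other 14 lay between 0.0554 (Mvk) and 0.0947 (Fdps) in limma. Without E18.5 replicate B, 4 members and 4 other enzymes were called. Without an E16.5 library, 5 or 6 members and 6 other enzymes were called.

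**Figure D3:**
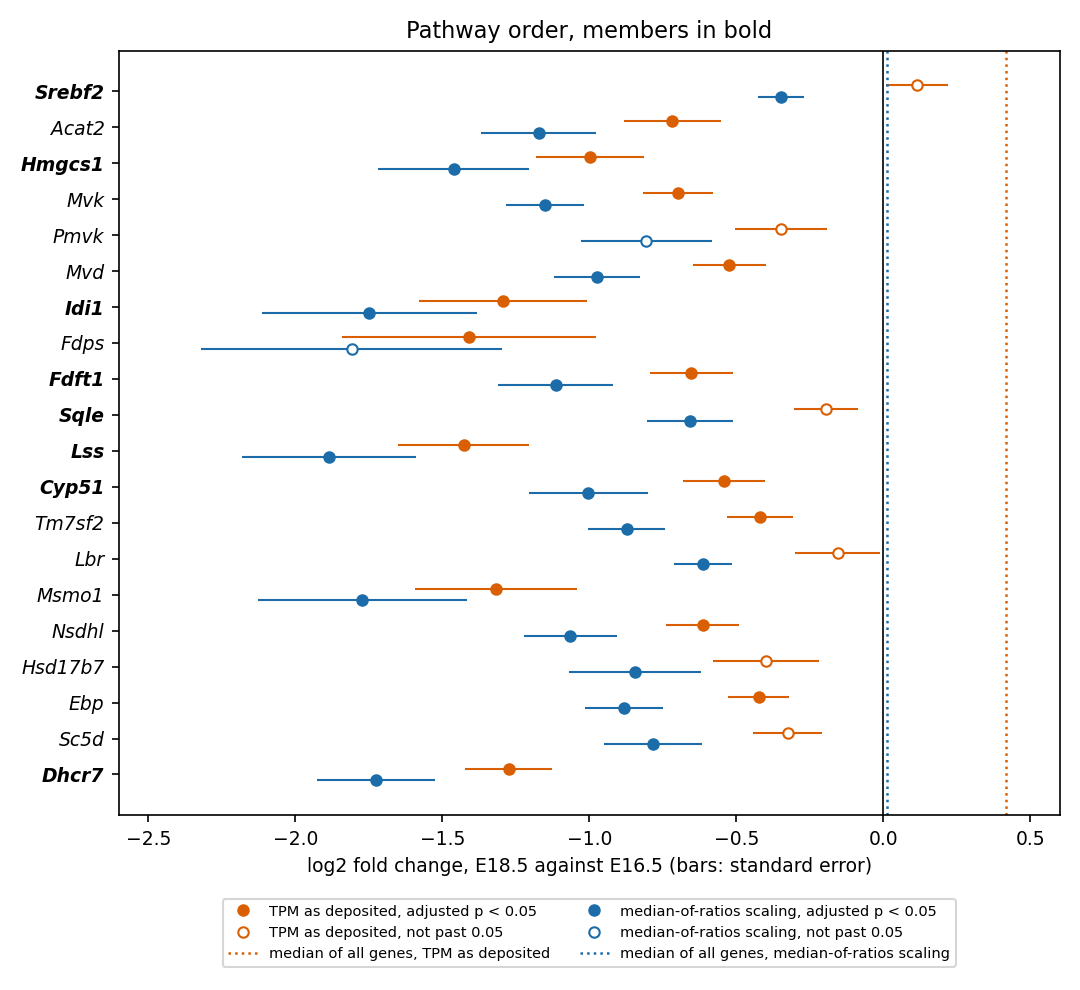
Log2 fold change, E18.5 against E16.5, of Srebf2 and enzymes from Acat2 to Dhcr7 in pathway order, with bars of 1 standard error, for the TPM as deposited (orange) and after median-of-ratios scaling (blue); filled points were called. All enzymes shown lie left of 0 on both scalings, while Srebf2 lies at 0.11 and -0.35; dotted lines are the medians of all genes, 0.42 and 0.01.

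Genes that control SREBP processing included calls in both directions. Of 10 listed, 4 were called higher and 1 lower, where 26.0% and 5.22% of all genes were called. The median log2 fold change was 0.23, below the 0.42 of all genes. With median-of-ratios scaling 0 were called higher and 2 lower (6.44% and 10.5% of all genes), with a median of -0.21. Insig2, a retention protein, rose from 14.6 ± 1.66 to 22.9 ± 1.53 TPM (SD, n = 3), a log2 fold change of 0.62 (limma adjusted p = 0.0223) that was 0.18 after median-of-ratios scaling. Scap, the escort protein, fell by 0.42 on the log2 scale (limma adjusted p = 0.0452) and, with that scaling, by 0.88. Insig1, itself a target of SREBP2, had 113, 127 and 187 TPM at E16.5 and 84.3, 51.2 and 170.2 TPM at E18.5. Its libraries overlapped, and its -0.61 had a standard error of 0.42 (limma adjusted p = 0.279). Without E18.5 replicate C it was -1.07 (limma adjusted p = 0.0499). Mbtps1, a protease that releases SREBP, had 0.51 (limma adjusted p = 0.0338), and the ubiquitin ligase Rnf139 had 0.54 (limma adjusted p = 0.0248); with median-of-ratios scaling they had 0.05 and 0.09 and were not called. Calls in this list were not stable to leaving out a library: 0 were left without E16.5 replicate A or E18.5 replicate A or B and 1 without E16.5 replicate B or C, and without E18.5 replicate A, Insig2, Rnf139, Mbtps1 and Scap had limma adjusted p of 0.0790, 0.0801, 0.0993 and 0.124. Srebf1, the paralog of Srebf2 known for fatty acid synthesis, had 99.1 ± 2.24 and 94.1 ± 15.3 TPM (SD, n = 3) and a log2 fold change of -0.09 (limma adjusted p = 0.634).

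In sterol uptake and transport, 9 of 10 listed genes were tested, and 1 was called higher and 1 lower (26.0% and 5.22% of all genes). The median log2 fold change was 0.08. With median-of-ratios scaling 0 were called higher and 3 lower (6.44% and 10.5% of all genes), with a median of -0.33. Npc2, which carries cholesterol out of lysosomes, rose by 0.69 (limma adjusted p = 0.0126; 0.0565 without E18.5 replicate A), or by 0.23 without a call after median-of-ratios scaling. Stard4, a sterol carrier of the cytosol, had 188 ± 18.6 and 210.2 ± 11.8 TPM (SD, n = 3) and was not called (0.16, and -0.30 with that scaling).

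For esterification and efflux, 9 of 10 genes were tested, and 2 were called higher and 2 lower (26.0% and 5.22% of all genes). The median log2 fold change was -0.26. With median-of-ratios scaling 0 were called higher and 3 lower (6.44% and 10.5% of all genes), with a median of -0.57. With a library left out 1 to 4 were called, 1 without E18.5 replicate A and 2 without E16.5 replicate A or C or E18.5 replicate B. Soat2, the cholesterol acyltransferase of liver and intestine, had 97.0, 89.5 and 117 TPM at E16.5 and 28.2, 12.7 and 25.5 TPM at E18.5. This was a log2 fold change of -2.21 (limma adjusted p = 0.00858), larger than that of any member, and it was called in each of the 15 alternatives in which it was tested. Soat1, the acyltransferase of most other cells, had 52.9 ± 3.81 and 71.5 ± 4.40 TPM (SD, n = 3), a log2 fold change of 0.43 (limma adjusted p = 0.0292; 0.103 without E18.5 replicate A) that was -0.030 with median-of-ratios scaling. Their ratio, chosen after the values had been seen, was 0.526, 0.640 and 0.430 at E16.5 and 2.69, 5.28 and 2.81 at E18.5. By TPM, Soat2 was thus the higher acyltransferase in each E16.5 library and Soat1 in each E18.5 library. Abca1, the transporter that loads cholesterol onto apolipoprotein, fell by 0.75 on the log2 scale (limma adjusted p = 0.0139). Without E18.5 replicate A its adjusted p was 0.0514.

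Some products leave the pathway before squalene. Of 11 genes of the isoprenoid branch, which makes dolichol, ubiquinone side chains and prenyl groups, 3 were called higher, a share near the 26.0% of all genes, and 0 lower. The median log2 fold change was 0.25, below the 0.42 of all genes. With median-of-ratios scaling 0 were called and the median was -0.19, and with any 1 library left out 0 or 1 were called. Ggps1, which makes geranylgeranyl diphosphate, had 0.56 (limma adjusted p = 0.0286; 0.0926 without E18.5 replicate A). Dhdds, a subunit of the dolichol-forming enzyme, had 58.0 ± 3.08 and 70.2 ± 3.78 TPM (SD, n = 3) and was not called (0.27, limma adjusted p = 0.0879). Fatty acid synthesis genes answer mainly to Srebf1. Of the 13 tested, 1 was called higher and 3 lower (26.0% and 5.22% of all genes), with a median of -0.17. With median-of-ratios scaling 0 of them were higher and 10 lower (6.44% and 10.5% of all genes), with a median of -0.62. With a library left out 0 to 3 of them were called, the fewest without E18.5 replicate A (0) and replicate B (1). Scd1, a stearoyl-CoA desaturase, fell by 0.97 (limma adjusted p = 0.0127; 0.0511 without E18.5 replicate A), and Scd2, the more abundant desaturase at 664 ± 39.4 and 568 ± 40.1 TPM (SD, n = 3), was not called (-0.23, limma adjusted p = 0.180). Me1, the malic enzyme that supplies NADPH, rose by 0.97 (limma adjusted p = 0.0308; 0.0876 without E18.5 replicate A), or by 0.52 without a call after median-of-ratios scaling. Acly, which makes cytosolic acetyl-CoA, was level at 274 ± 21.2 and 269.7 ± 22.8 TPM (SD, n = 3; -0.02, limma adjusted p = 0.885). Fasn, the fatty acid synthase, had -0.28 (limma adjusted p = 0.1002) and was called at -0.74 after median-of-ratios scaling (limma adjusted p = 0.0214).

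Idi2, the paralog of Idi1, was near the filter at 0.700 ± 0.320 and 1.45 ± 0.552 TPM (SD, n = 3) and was not called (0.52, limma adjusted p = 0.237).

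**Figure D4:**
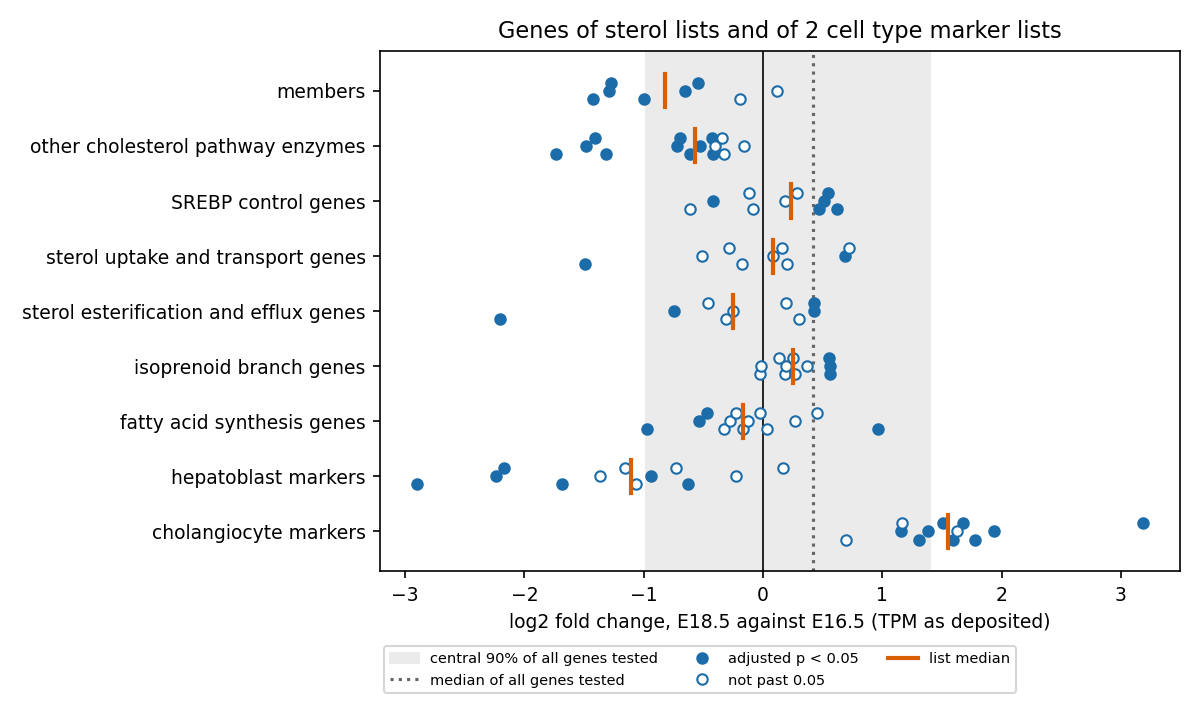
Log2 fold change, E18.5 against E16.5 (TPM as deposited), of each gene tested in 7 sterol and lipid lists and 2 marker lists; filled points were called, orange bars are list medians, the dotted line is the median of all genes (0.42) and the grey band holds the central 90% of all genes (-0.98 to 1.40). The members (median -0.83) and other enzymes (-0.57) have lower medians than the other lipid lists, and hepatoblast markers have a median of -1.11 and cholangiocyte markers of 1.55.

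Cell type marker lists moved in both directions. Of 12 hepatoblast markers, 6 were called lower and 0 higher, with a median log2 fold change of -1.11 and a range from -2.90 (Afp) to 0.17 (Cebpa). Of 12 cholangiocyte markers, 9 were called higher and 0 lower, with a median of 1.55. These counts leaned on single libraries. Without any 1 of the E16.5 libraries or without E18.5 replicate A, 2 hepatoblast markers were called, and without E18.5 replicates A, B and C in turn, 1, 2 and 5 cholangiocyte markers were. The megakaryocyte list fell in 9 of 9 genes, with a median of -4.39, and all 9 were called with any 1 library left out. Mesenchyme markers had a median of 1.09 with 3 of 9 called higher, and summed to 268 to 420 TPM in the early libraries and 562 to 992 TPM in the late ones. Endothelial markers (2 of 9 called higher, median 0.38) and leukocyte markers (2 of 7, median 0.56) had medians near the 0.42 of all genes. Erythroid markers (0 of 10, median -0.14) and proliferation genes (0 of 10, median -0.22) had medians below it. Of all genes, 26.0% were called higher and 5.22% lower, so the mesenchyme, endothelial and leukocyte counts lay near the share of all genes. With a library left out, 0 to 2 mesenchyme markers and 0 or 1 endothelial marker were called, and 3 erythroid markers without E18.5 replicate B. With median-of-ratios scaling, 5 hepatoblast markers and 7 proliferation genes were called lower (10.5% of all genes). On the same scaling, 4 cholangiocyte markers and 1 mesenchyme marker were called higher (6.44% of all genes), and the endothelial median turned to -0.05. The part of these cell types in the fall of the enzymes was not tested.

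The order of the libraries within a stage ran in parallel for enzymes and hepatoblast markers. E16.5 replicate C was the highest library of its stage for 7 of the 7 member enzymes, 17 of the 21 enzymes and 12 of the 12 hepatoblast markers, and the lowest for 11 of the 12 cholangiocyte markers. E18.5 replicate B was the lowest of its stage for 7 of the 7 member enzymes, 17 of the 21 enzymes and 12 of the 12 hepatoblast markers. Srebf2 ran the other way, lowest in E16.5 replicate C and highest in E18.5 replicate B. These libraries also differed in other cell type lists. At E16.5 the megakaryocyte sum was highest in replicate C (9595 TPM, beside 5757 and 3310 TPM in replicates A and B). At E18.5 it was highest in replicate B (760 TPM, beside 87.9 and 215 TPM in replicates A and C), where the enzymes were mostly lowest. The summed level of the 7 member enzymes per 1000 TPM of hepatoblast markers was 4.85, 4.79 and 4.89 TPM at E16.5. It was 6.26, 10.2 and 5.80 TPM at E18.5. The ratio was thus nearly constant among the E16.5 libraries and higher in each E18.5 library.

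Single members differed when set against Hnf4a, a nuclear factor of hepatoblasts that fell by 0.62 on the log2 scale (limma adjusted p = 0.0330). Lss stood at 0.401, 0.402 and 0.536 times Hnf4a at E16.5 and at 0.251, 0.238 and 0.261 times Hnf4a at E18.5, without overlap. Fdft1 stood at 0.439, 0.439 and 0.482 times Hnf4a and then at 0.414, 0.486 and 0.430 times Hnf4a, with overlap. Sqle stood at 0.349, 0.405 and 0.396 times Hnf4a and then at 0.514, 0.638 and 0.417 times Hnf4a, higher in each late library than in any early one. Hmgcs1, Idi1 and Dhcr7 were, like Lss, lower in each late library than in any early one. Their mean ratios to Hnf4a were 1.52, 0.31 and 0.22 at E16.5 and 1.17, 0.19 and 0.14 at E18.5. Cyp51 overlapped, with means of 0.52 and 0.55, and Srebf2 rose without overlap, with means of 0.48 and 0.83. Relative to this factor, Lss, Hmgcs1, Idi1 and Dhcr7 were therefore lower at E18.5. Fdft1 was about level, Cyp51 overlapped, and Sqle and Srebf2 were higher. Such ratios, picked with the values already known, carry no test.

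**Figure D5:**
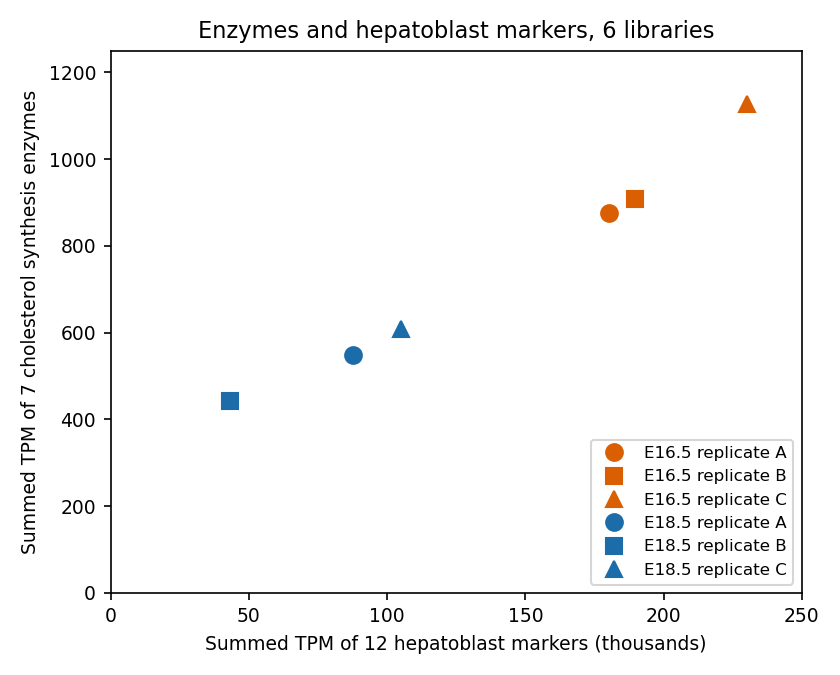
Summed TPM of the 7 cholesterol synthesis enzymes among the members against the summed TPM of 12 hepatoblast markers (axis in units of 1000 TPM) in each of the 6 libraries, colour for stage and symbol for replicate. Both sums put the libraries in the same order, from E18.5 replicate B (443 and 43270 TPM) to E16.5 replicate C (1127 and 230300 TPM).

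The genes most like the members were sought by Pearson r over the 6 libraries between log2(TPM + 1) of each of 11241 protein-coding genes averaging 5 TPM or more, outside the gene and marker lists used here, and the mean standardized profile of the 8 members. The difference between the stages makes up most of such a profile, so r is a description of 6 points in 2 groups. The 5 closest of these genes had r = 0.997: Aadac, a lipid-handling esterase of the liver, Tmem205, Suclg1, a subunit of succinyl-CoA synthetase, Pcbd1, a protein of phenylalanine hydroxylation, and Bdh1, the ketone body dehydrogenase. All 5 were called lower at E18.5, with log2 fold changes of -0.91, -0.82, -0.67, -0.64 and -1.44. A choice by that profile makes such calls likely, so they are no separate result. Each member is itself part of the shared profile, which raises its r. That r was 0.975 to 0.997 for the 6 that were called, 0.864 for Sqle and -0.806 for Srebf2. Among the hepatoblast markers, which were not in that search, it was 0.999 for Ttr, higher than for any of the 5, 0.991 for Afp and 0.967 for Alb, and -0.155 for Cebpa.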

How the data were processed

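RNA was measured in 6 libraries, 3 per stage, grouped by the stage and replicate letter of the labels. The authors checked and trimmed the reads, aligned them to GRCm38, counted them per gene and converted the counts to TPM (FastQC 0.11.7, HISAT2 2.1.0 and HTSeq 0.5.4p3 in the submitters' processing notes, which also name Bowtie); the deposited TPM of 52550 genes sum to 1000000 per library. No column was left out.

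Symbols, exon lengths and positions were read from GENCODE vM21, which holds 52403 of the identifiers, 49035 with the same version; 147 had no match. TPM times exon length, divided by the worth of 1 read, was whole within 0.01 for 100% of the nonzero values of the 49035, which gave the depth. Counting error covers neither pooling nor sorting. Libraries of a stage differed by a chi-square of 17.1 or more per degree of freedom, so none was a copy.

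For the stage comparison, a linear model of log2(TPM + 1) was fitted in limma 3.58.1 (R 4.3.3) with trended empirical Bayes variances. The 22452 genes averaging 1 TPM or more entered it, and p-values were adjusted over all of them by Benjamini-Hochberg; fold changes on this scale are understated for low genes. The step was tested on simulated data. Ratios, exact permutation tests and motif searches were run in Python 3.11.15. Alternatives were a pseudocount of 0.1, no filter, a minimum average of 5 TPM, scaling by median of ratios, quantile normalization, TPM rescaled after removing genes for haemoglobin, mitochondrial and small structural RNA, untrended or robust variances, the replicate letters as a block, each library left out, and limma voom on the recovered reads.

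The members, lists, markers and tests were chosen with earlier results of these data known. All members were named; from each list, the called genes with the largest log2 fold change and the uncalled genes of highest TPM served as examples, with further listed genes given by role. Values of a few listed genes are left out of the text, although counts and sums over lists include them.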

Additional observations from a re-analysis of the deposited data

How the results depend on the processing

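Each gene in each alternative fit was counted as a separate case. The 6 called members kept their direction in all 96 cases and lost the call in 10. The 10 called other enzymes kept their direction in all 159 cases and lost the call in 34. The number of genes called was 7000, and 4282 without a filter, 3795 with median-of-ratios scaling, 3796 with quantile normalization and 1148 to 5432 across the fits with a library left out, which have fewer samples. In those fits 2 to 6 members and 2 to 10 other enzymes were called, the fewest without E18.5 replicate A. No design pairs the replicate letters: deviations of libraries with the same letter correlated at -0.0425, 0.0814 and 0.140, and with the letters as a replicate block 7314 genes, 6 members and 11 other enzymes were called. With limma voom on the recovered reads, 5563 genes, 6 of 7 members tested and 11 of 13 other enzymes tested were called. Signs reversed with median-of-ratios scaling for Srebf2 (-0.35), Stard4 (-0.30), Lipa (-0.26), Soat1 (-0.030), Nr1h2 (-0.031), Dhdds (-0.19) and Nus1 (-0.28), and with quantile normalization for Srebf2 (-0.053), Dhdds (-0.0031) and Nus1 (-0.093), since these scalings lower the median of all genes from 0.42 to 0.01 and 0.06. Acly, at -0.02, ranged from -0.0888 to 0.042 with a library left out (0.017 without E16.5 replicate A). E18.5 replicates B and C were the shallowest libraries.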
